A study of Mus musculus with 12 samples.

Results

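The cytochrome P450 enzymes of families 1 to 4 were compared in 12 mouse liver libraries of polyadenylated RNA. Members were all gene symbols of the deposited data that begin with Cyp, a family number from 1 to 4, a subfamily letter and a gene number. This gave 77 genes of 19012 symbols. A member counted as expressed when it reached 0.5 RPKM in at least 4 libraries, where RPKM scales the reads of a gene by its exon length and by the depth of the library. By that rule 57 members were expressed: 3 of 3 in family 1, 35 of 46 in family 2, 7 of 9 in family 3 and 12 of 19 in family 4. The libraries were 4 livers labelled wild type, 4 livers labelled E2F7/8 DKO (double knockout of the atypical E2F repressors E2f7 and E2f8, per the labels) and 4 liver tumors labelled E2F7/8 DKO. Strain, age, sex, the way the alleles were deleted and the cause of the tumors do not appear in the sources used here. DKO liver and DKO tumor of the same replicate number carry the same animal code, so each tumor is set beside a liver of its own animal, whereas wild-type livers carry codes of other animals.

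P450 enzymes of these families sit in the membrane of the endoplasmic reticulum, hold a heme and take electrons from the reductase Por. Families 1 to 3 oxidize drugs, pollutants, steroids and some fatty acids, and family 4 hydroxylates fatty acids at the chain end. Most are made by hepatocytes. Many are zonated, with Cyp2e1 and Cyp1a2 around the central vein and Cyp2f2 around the portal tract, and many differ between male and female mice under the pattern of growth hormone release.

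Depth ranged from 7984910 to 15955700 reads per library (rounded to 6 digits). E2f7 was at 0.103 to 0.200 RPKM in wild-type livers, 0.211 to 0.400 among DKO livers and 0.0365 to 0.259 in tumors. E2f8 was at 1.66 to 4.30, 2.80 to 20.8 and 1.66 to 12.2. These are sums over whole transcripts, and the sources used here do not say which exons were deleted, so the levels are no check of the genotype. Hepatocyte markers were abundant in all 12 libraries, with albumin (Alb) from 20689 to 109390 RPKM. The Y-linked transcripts Ddx3y, Eif2s3y, Uty and Jarid1d were detected in all 12 libraries, so each library held RNA of male cells. Some libraries stood apart. The clock gene Arntl was at 11.2 and 9.95 RPKM in DKO livers 1 and 2 and 9.24 and 10.9 in the tumors of the same animals, against at most 2.26 in the other 8 libraries. Tumor 4 had 2502 RPKM of glutamine synthetase (Glul) and tumor 2 had 942, against 53.2 to 235 in the other 10. A tag in the names of the deposited data, of unstated meaning, was L03 for every tumor and for wild-type livers 3 and 4, and L02 for the remaining 6 libraries.

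Near-identical genes limit what these counts can resolve. All 57 expressed members matched a mouse reference transcript (GENCODE M21, build GRCm38) by accession, whose length can differ from the deposited exon length. The median member had 89.3% of its 50-base windows in no other gene, and 26 members had at least 90%. Cyp2a4 had 62.0% and Cyp2a5 59.2%, Cyp4a12a had 51.1% and Cyp4a12b 50.6%, and Cyp2c67, Cyp2c69 and Cyp2c40 had 47.2, 45.2 and 27.9%. The coding sequences of Cyp2a4 and Cyp2a5 differ at 23 of 1485 bases (98.5% identity), and those of Cyp4a12a and Cyp4a12b at 23 of 1527. The stretches below are the 90 coding bases of each pair with the most differences, shown because a read is assigned to the one or the other gene by such bases. Differing bases are in capitals. The Cyp2a pair is shown from base 580 to base 669 of the coding sequence and the Cyp4a12 pair from base 661 to base 750, all 5′ to 3′ on the coding strand.
Cyp2a4: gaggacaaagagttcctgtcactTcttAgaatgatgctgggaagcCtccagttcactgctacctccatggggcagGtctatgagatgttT
Cyp2a5: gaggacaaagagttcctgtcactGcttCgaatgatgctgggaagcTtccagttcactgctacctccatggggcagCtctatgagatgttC
Cyp4a12a: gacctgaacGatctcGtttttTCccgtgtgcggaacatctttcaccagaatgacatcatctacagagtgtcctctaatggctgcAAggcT
Cyp4a12b: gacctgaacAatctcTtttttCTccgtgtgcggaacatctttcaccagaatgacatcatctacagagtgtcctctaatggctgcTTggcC
The Cyp2a pair differs at 5 bases of its stretch and the Cyp4a12 pair at 7. The sources used here do not say how reads that fit both genes were counted, so the levels of these 4 genes and of the Cyp2c40, Cyp2c67 and Cyp2c69 group are uncertain.

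The 57 expressed members spanned a wide range of levels. Mean RPKM over the 12 libraries was above 100 for 21 members, from 10 to 100 for 16 and under 10 for 20. Cyp2e1, which oxidizes ethanol and acetaminophen, had the highest level in wild-type liver, at 6677, 4096, 4482 and 5729 RPKM. Cyp3a11, the main drug-oxidizing enzyme of its subfamily, was at 1584 to 2109.8 RPKM there, and the epoxygenase Cyp2c29 at 464 to 1265. Cyp2f2, which oxidizes naphthalene, was at 496 to 977, and Cyp2c70, which makes muricholic bile acids, at 475 to 699. The 7 members of highest mean over the 12 libraries made up 71.3% of the summed P450 RPKM of wild-type liver. Among members nearest to the expression limit, Cyp4f18 and Cyp1a1 had 0.578 and 0.811 RPKM in their fourth-highest library and were kept, while Cyp4a31 and Cyp2s1 had 0.489 and 0.284 and were left out.

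Summed over all members, P450 RPKM was 16397, 13540.0, 11777 and 15651 in the wild-type livers. DKO livers reached 9304, 11097, 9632 and 4912, and tumors 6554, 8976, 9692 and 15868. All 4 DKO livers lay below every wild-type liver, DKO liver 4 lowest, whereas tumors spread from below to within the wild-type range. As a share of the summed RPKM of all symbols, P450 transcripts made up 2.63 to 3.33% in wild-type livers, 1.09 to 2.40% among DKO livers and 1.47 to 3.55% in tumors. In whole tissue, fewer cells of a type and less RNA per cell cannot be told apart.

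**Figure D1:**
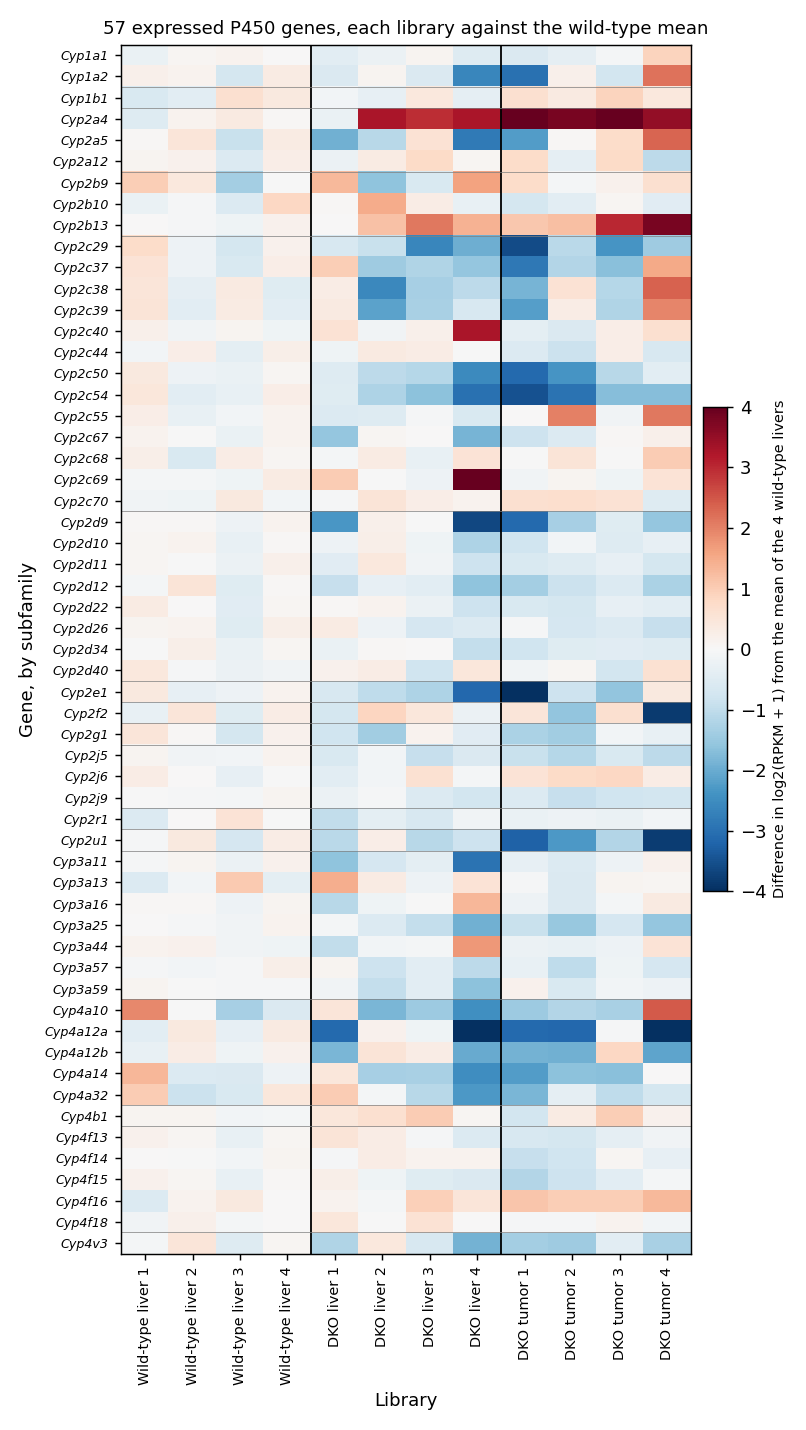
Difference of each library from the mean of the 4 wild-type livers in log2(RPKM + 1), for the 57 expressed P450 genes (rows, ordered by subfamily) and 12 libraries (columns, by group). Cyp2a4 stands out in 3 of 4 DKO livers and all 4 tumors, and tumors 1 and 4 differ from the wild-type mean in opposite directions for Cyp1a2, Cyp2a5, Cyp2c38 and Cyp2c39.

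The comparison of DKO tumor with wild-type liver asks which P450 genes differ in tumors of double-knockout animals from normal liver. Of 57 members, 6 changed: Cyp2a4 and Cyp4f16 rose, and Cyp2u1, Cyp2c54, Cyp2j5 and Cyp2j9 fell (limma on log2(RPKM + 1), Benjamini-Hochberg adjusted p under 0.05 over 11351 genes). Over all genes tested, 1.9% were called in this comparison (1.23% higher and 0.67% lower), against 10.53% of members. The median member difference was -0.38, against -0.02 for all genes, and 44 of 57 members were lower in tumors. The member median was -0.12 with quantile normalization (39 of 57 lower), -0.13 without a filter, and -0.15 without DKO animals 1 and 2 (34 of 57 lower, 0.12 for all genes). At an unadjusted p under 0.05 there were 22 members, 5 higher and 17 lower, which is 38.6%, against 19.2% of all genes (8.77% higher and 10.4% lower). Tumor and wild-type values did not overlap for 15 members, 3 higher and 12 lower, which is 26.3%, against 11.9% of all genes (5.57% higher and 6.32% lower).

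Cyp2a4, a steroid hydroxylase of female-biased expression (chr7:27092210-27100106, mm9, plus strand), was at 7.81, 12.8, 15.3 and 12.04 RPKM in wild-type livers. It was at 9.64, 122, 97.9 and 122 among DKO livers and 305, 174, 212 and 144 in tumors. All tumors lay above all other libraries, and DKO liver 1 lay within the wild-type range while the other 3 DKO livers lay between it and the tumors. The mean rose from 11.99 ± 3.10 in wild-type livers to 209 ± 70.04 RPKM in tumors (SD, n = 4 each; log2 difference 3.99, SE 0.65, limma adjusted p = 0.0181). Its near copy Cyp2a5, a coumarin hydroxylase, was at 167, 227, 87.1 and 204 RPKM in wild-type livers. DKO livers had 41.7, 74.3, 241 and 21.9 RPKM of it, and tumors 33.8, 168, 269 and 820.0. Cyp2a5 values of the groups overlapped, and the limma log2 difference of tumor from wild type was 0.23 (SE 0.87, adjusted p = 0.921). The order of the tumors was not the same for the pair: tumor 1 was highest for Cyp2a4 and lowest for Cyp2a5, and tumor 4 was lowest for Cyp2a4 and highest for Cyp2a5. The sum of the pair was 102 to 239 RPKM in wild-type livers, 51.4 to 339 among DKO livers and 339 to 964 in tumors. Tumors and wild-type livers did not overlap for it. The sum is independent of the split of shared reads only if each was counted for 1 of the 2 genes, which is not known.

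Cyp4f16, of the subfamily that hydroxylates leukotrienes and fatty acids (chr17:32673573-32688741, plus strand), was at 0.520, 1.44, 1.90 and 1.23 RPKM in wild-type livers. It was at 1.45, 1.10, 3.33 and 2.09 among DKO livers and 3.76, 3.38, 3.42 and 4.39 in tumors. The tumors lay above both liver groups, at low levels throughout. The mean rose from 1.27 ± 0.575 to 3.74 ± 0.468 RPKM (n = 4 each; log2 difference 1.09, SE 0.23, limma adjusted p = 0.0324). Of its 50-base windows, 74.2% occurred in no other gene.

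Of the 4 members that fell, Cyp2u1, a fatty acid hydroxylase with higher expression in male liver (chr3:130997327-131006144, minus strand), was at 23.7, 32.6, 15.0 and 30.6 RPKM in wild-type livers, 11.04, 29.7, 10.8 and 13.3 among DKO livers and 1.73, 4.17, 10.4 and 0.846 in tumors. The tumors lay below both liver groups, tumor 4 lowest. The mean fell from 25.5 ± 7.96 to 4.29 ± 4.32 RPKM (n = 4 each; log2 difference -2.62, SE 0.50, limma adjusted p = 0.0269). Cyp2c54, which forms epoxides of arachidonic acid (chr19:40112680-40148300, minus strand), was at 245, 134, 145 and 213 RPKM in wild-type livers, 127, 75.5, 56.5 and 21.5 among DKO livers and 14.9, 22.2, 53.6 and 54.5 in tumors. Both DKO groups lay below the wild-type range. Its mean fell from 184 ± 53.2 to 36.3 ± 20.7 RPKM (n = 4 each; log2 difference -2.46, SE 0.52, limma adjusted p = 0.0353). The paralogs Cyp2c54 and Cyp2c50 share coding identity of 95.3%, and 74.3% of Cyp2c54 windows occurred in no other gene.

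Cyp2j5, another epoxygenase of arachidonic acid (chr4:96294122-96330809, minus strand), was at 210.0, 179, 179 and 215 RPKM in wild-type livers, 129, 182, 103 and 131 among DKO livers and 106, 87.0, 129 and 93.9 in tumors. The tumors lay below the wild-type range and the DKO livers overlapped with both groups. The mean fell from 196 ± 19.6 to 104 ± 18.3 RPKM (n = 4 each; log2 difference -0.92, SE 0.20, limma adjusted p = 0.0373). Its neighbour Cyp2j9 (chr4:96235119-96258175, minus strand) was at 1.93, 1.89, 1.82 and 2.20 RPKM in wild-type livers, 1.49, 1.85, 1.04 and 0.777 among DKO livers and 1.03, 0.567, 0.720 and 0.787 in tumors. The tumors lay below the wild-type range, and the DKO livers overlapped with both groups. The mean fell from 1.96 ± 0.169 to 0.776 ± 0.194 RPKM (n = 4 each; log2 difference -0.74, SE 0.16, limma adjusted p = 0.0341). Cyp2j6, also expressed from this cluster, was at 15.8 ± 2.99 RPKM in wild-type livers and 24.6 ± 4.20 in tumors, a log2 difference of 0.61 that did not pass (limma adjusted p = 0.146). Nearly all windows of Cyp2j5 (99.8%) and Cyp2u1 (96.9%) and all of those of Cyp2j9 occurred in no other gene. The windows are of reference transcripts of 2345 bases for Cyp2j5 and 4378 for Cyp2u1, whereas the deposited exon lengths were 3651 and 1887.

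**Figure D2:**
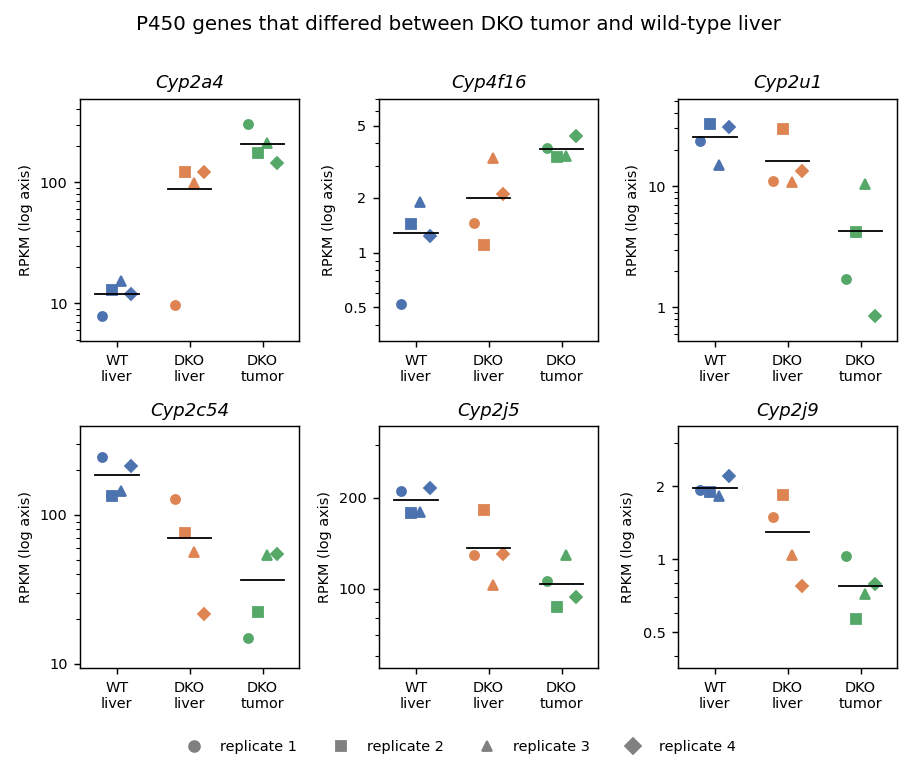
RPKM (log axis) of the 6 P450 genes that differed between DKO tumor and wild-type liver, 1 point per library and a line at the group mean. Same symbols in DKO liver and DKO tumor mark the same animal. Tumor points lie wholly above wild-type points for Cyp2a4 and Cyp4f16 and wholly below for the other 4 genes.

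Of hepatocyte markers in the same comparison, 8 of 9 were higher in tumors (median difference 0.19). Their summed RPKM was 82863 to 145970 in tumors and 58094 to 83503 in wild-type livers. Of markers of other liver cells, 8 of 10 for Kupffer cells and macrophages (median difference -0.62) and 10 of 11 for lymphocytes (-0.22) were lower in tumors. Higher were 7 of 12 for stellate cells and fibroblasts (0.12), 9 of 12 for endothelium (0.15) and 5 of 5 for cholangiocytes (0.15). Esm1, 1 of 12 endothelial markers (8.33%, against 1.23% of all genes called higher), rose (log2 difference 2.90, limma adjusted p = 0.0138). No other listed marker was called. Their part in the P450 differences was not tested.

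The 6 calls rested on few libraries. No member passed when wild-type liver 1, wild-type liver 4, tumor 1 or tumor 2 was left out, 1 passed without wild-type liver 2, and 3 passed without wild-type liver 3 or without tumor 4. With the L02 or L03 tag as a covariate 0 members passed, and among the 6 libraries of tag L03 only Cyp2a4 did (log2 difference 3.79, limma adjusted p = 0.00427). Under median-of-ratios scaling and under quantile normalization 6 members passed, 3 up and 3 down, with Cyp2b13 in place of Cyp2j5. Without the 2 DKO animals of high Arntl, the members that passed were Cyp2a4 (log2 difference 3.79, adjusted p = 0.00178) and Cyp2b13 (3.41, adjusted p = 0.0019).

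Most other large differences went down in tumors without passing the test. In the CYP2C group of epoxygenases and steroid hydroxylases, 9 of 13 expressed members were lower, with a median of -0.29. Cyp2c29 was at 1265, 664, 464 and 861 RPKM in wild-type livers and 63.5, 362, 146 and 281 in tumors, with no overlap (log2 difference -2.11, limma adjusted p = 0.0730). Cyp2c50 was at 179 to 279 and 24.0 to 161 RPKM (-1.75, adjusted p = 0.112). Cyp2c55 went the other way, with 1.04, 7.09, 0.844 and 7.66 RPKM in tumors against 0.628 to 1.45 in wild-type livers. Tumors 2 and 4 were the high ones (log2 difference 0.998, adjusted p = 0.259).

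All 8 expressed CYP2D genes, which encode steroid and drug hydroxylases, were lower in tumors than in wild-type livers, with a median of -0.54 and no call. Their summed RPKM was 1394 to 1942 in wild-type livers, 731 to 1888 among DKO livers and 988 to 1255 in tumors, so that tumors lay below the wild-type range. Cyp2d26 and Cyp2d10, the most abundant, were at 529.8 ± 109 and 476 ± 59.6 RPKM in wild-type livers and 367 ± 98.2 and 353 ± 68.2 in tumors (log2 differences -0.54 and -0.44, limma adjusted p = 0.302 and 0.426). In the same subfamily, 4 members did not overlap between tumor and wild type: Cyp2d9, Cyp2d11, Cyp2d12 and Cyp2d34, all lower, as were 6.32% of all genes.

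All 7 expressed CYP3A members were lower in tumors, with a median of -0.18. Cyp3a25, a steroid hydroxylase, was at 243, 234, 218 and 266 RPKM in wild-type livers and 128, 83.1, 151 and 80.8 in tumors, with no overlap (log2 difference -1.16, limma adjusted p = 0.0854). Summed over the subfamily, the level was 1878 to 2436 RPKM in wild-type livers and 1397 to 2278 in tumors. Cyp3a11, which makes up most of that sum, was at 1508, 1271, 1632 and 2125 RPKM in tumors and overlapped with wild type (-0.22, adjusted p = 0.839).

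Among fatty acid hydroxylases of family 4, all 5 expressed CYP4A members were lower in tumors, with a median of -1.27 and no call. Cyp4v3, whose human counterpart is mutated in a crystalline eye disease, was at 144 to 294 RPKM in wild-type livers and 76.7 to 156 in tumors (log2 difference -1.12, limma adjusted p = 0.164). Cyp4f14, a leukotriene hydroxylase, was at 188 ± 12.2 and 139 ± 45.6 RPKM (-0.48, adjusted p = 0.247). Cyp2r1, which activates vitamin D, was at 15.6 ± 5.09 and 12.8 ± 0.831 RPKM (-0.21, adjusted p = 0.664).

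In family 1, the inducible aromatic hydrocarbon hydroxylases Cyp1a1 and Cyp1b1 stayed at or under 2.17 RPKM in all libraries. Cyp1a2, which oxidizes caffeine and aromatic amines, was high and very uneven among tumors. It was at 42.3, 393, 207 and 1536 RPKM there, against 397, 379, 212 and 433 in wild-type livers (log2 difference -0.34, SE 0.88, limma adjusted p = 0.883). Tumors 1 and 3 lay below and tumor 4 above every wild-type liver.

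**Figure D3:**
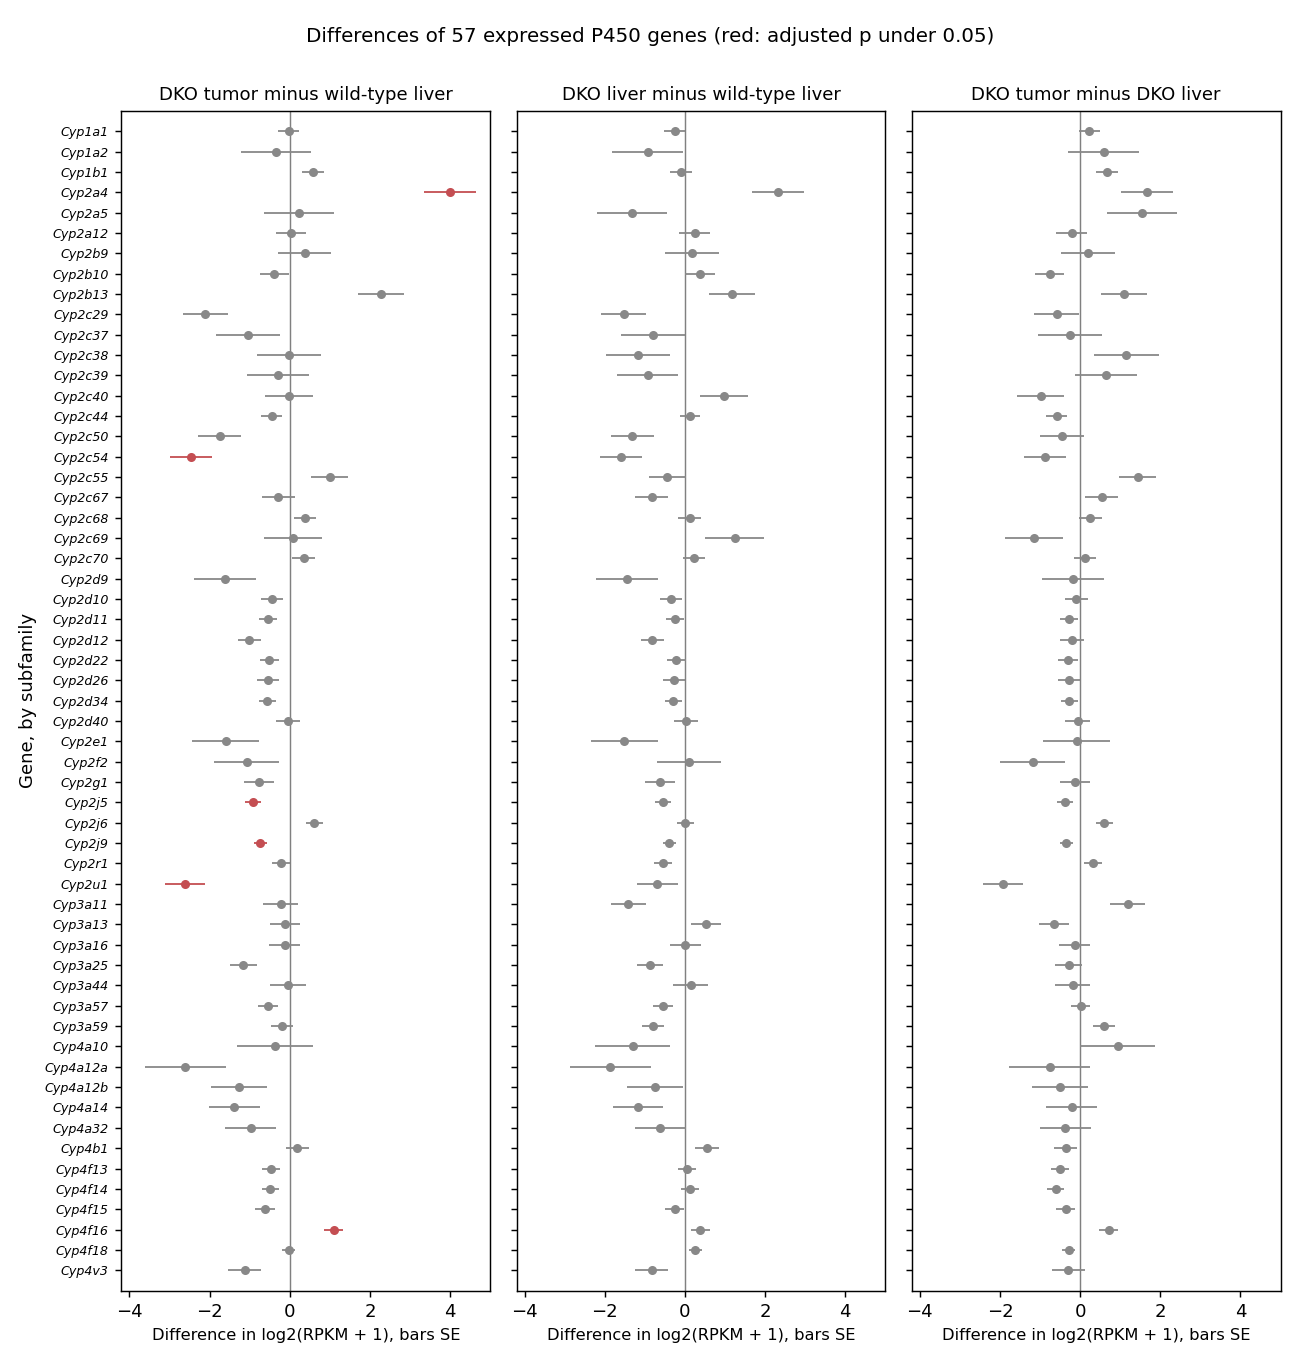
Differences in log2(RPKM + 1) with SE bars for the 57 expressed P450 genes (rows) in the 3 comparisons (panels), 4 libraries per group. Red marks adjusted p under 0.05, which occurs for 6 genes in DKO tumor minus wild-type liver and for 0 in the other panels.

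DKO liver was compared with wild-type liver to see whether P450 genes differ in non-tumor liver labelled double knockout. No member was called by limma, and 0% of the 11351 genes were. At an unadjusted p under 0.05 there were 12 members, 1 higher and 11 lower, which is 21.1%, against 12.4% of all genes (9.16% higher and 3.24% lower), and voom on the reads recovered from RPKM called 0 members as well. The median member difference was -0.35, against 0.08 for all genes, and 36 of 57 members were lower in DKO liver. The member median ran from -0.09 without a filter to -0.55 with an offset of 0.1. Values did not overlap for 5 members, all lower in DKO liver (Cyp3a11, Cyp2c54, Cyp3a59, Cyp2c50 and Cyp2e1), which is 8.77%, against 7.59% of all genes (5.62% higher and 1.96% lower).

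Cyp3a11 was at 1831, 2018, 1584 and 2109.8 RPKM in wild-type livers and 612, 1167, 1434 and 241 in DKO livers. All DKO livers were below the wild-type range, DKO livers 1 and 4 the most (log2 difference -1.41, SE 0.44, limma adjusted p = 0.291). Cyp2c54 differed by -1.59 (SE 0.52, adjusted p = 0.308) and Cyp2c29 by -1.53 (SE 0.56, adjusted p = 0.340), with Cyp2c29 at 484, 408, 123 and 197 RPKM in DKO livers. Cyp2a4 had the largest difference, 2.32 (SE 0.65, adjusted p = 0.283). DKO liver 1, at 9.64 RPKM, decided that call: without it the log2 difference was 3.17 (limma adjusted p = 3.44e-04), and without DKO animals 1 and 2 it was 3.12 (adjusted p = 0.0101). DKO liver 1 was the only DKO liver within the wild-type range, so fits without it are no independent support for a difference.

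Markers of other liver cells were higher in DKO liver, none of them called. Of the stellate cell and fibroblast markers, 12 of 12 were higher in DKO liver than in wild-type liver, with a median difference of 0.72, and their summed RPKM was 129 to 183 in wild-type and 140.2 to 437 in DKO livers. Of the Kupffer cell and macrophage markers, 10 of 10 were higher (median 0.71, sums 102 to 288 and 197 to 530.4). The same held for 12 of 12 endothelial markers (median 0.55, sums 59.3 to 90.9 and 92.7 to 150.1) and 11 of 11 lymphocyte markers (median 0.32, sums 5.75 to 19.1 and 10.1 to 27.6). Of 5 expressed cholangiocyte markers, 5 were higher (median 0.71, sums 29.8 to 42.9 and 34.6 to 173). No listed marker of these 5 cell types was at 0 in all libraries. Hepatocyte marker sums were 58094 to 83503 RPKM in wild-type livers and 51371 to 126820 in DKO livers. The part of these other cells in the P450 differences was not tested.

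DKO tumor was compared with DKO liver of the same 4 animals to see how tumor and liver of 1 animal differ. No member was called by limma, against 0.00881% of all genes, which is 1 gene. At an unadjusted p under 0.05 there were 12 members, 7 higher and 5 lower in tumor, which is 21.1%, against 16.1% of all genes (4.01% higher and 12% lower), and voom called 0 members. With the animal as a replicate block 0 members and 71 genes in all passed. The median member difference was -0.21, against -0.09 for all genes, and median-of-ratios scaling moved these to -0.10 and 0.01. The member median was -0.05 with quantile normalization, -0.07 without tumor 1 and -0.37 without DKO liver 4. Its sign turned without DKO animals 1 and 2, to 0.28 (0.02 for all genes), with 20 of 57 members lower.

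Groups did not overlap for 3 members, Cyp2a4 and Cyp4f16 higher and Cyp2u1 lower in tumors, which is 5.26%, against 6.2% of all genes (2.12% higher and 4.08% lower). Cyp2u1 had the largest difference, -1.93 (SE 0.50, limma adjusted p = 0.114). It was followed by Cyp2a4 at 1.68 (SE 0.65, adjusted p = 0.235), Cyp2a5 at 1.55 (adjusted p = 0.407), Cyp2c55 at 1.43 (adjusted p = 0.169) and Cyp3a11 at 1.19 (adjusted p = 0.215). Tumor 3 decided the calls here: without it, 363 of 11351 genes passed, and of the 57 members 3 did. These were Cyp2u1 (log2 difference -2.42, adjusted p = 0.0165), Cyp2c55 (1.81, adjusted p = 0.0421) and Cyp4f14 (-0.80, limma adjusted p = 0.04995). With 1 library left out in turn the gene count ran from 1 to 363, so the fit without tumor 3 is the extreme and no independent support. All tumors carried the tag L03 and all DKO livers L02, so tag and tissue cannot be told apart. Markers of other cells were again on one side: 9 of 10 Kupffer cell and macrophage markers (median -1.34), 11 of 11 lymphocyte markers (-0.55), 11 of 12 stellate cell and fibroblast markers (-0.76) and 10 of 12 endothelial markers (-0.24) were lower in tumors than in DKO livers. Tumor sums were 56.9 to 245, 3.68 to 17.4, 87.9 to 307 and 58.7 to 134 RPKM in that order. Of cholangiocyte markers 4 of 5 were lower (median -0.39), and of hepatocyte markers 6 of 9 were higher (median 0.15). The part of all these cells in the P450 differences was not tested. The 2 comparisons with tumor share the tumor libraries, and the 2 with wild-type liver share the wild-type libraries, so their differences are not independent of each other.

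Members known to be expressed around the central vein differed widely from tumor to tumor. There were 8 expressed pericentral P450 genes, with 0 called in each comparison and median differences of -1.21 for tumor against wild type, -1.31 for DKO liver against wild type and -0.15 for tumor against DKO liver. Cyp2e1 was at 6677, 4096, 4482 and 5729 RPKM in wild-type livers, 3314, 2527, 2175 and 588 among DKO livers and 248, 2878, 1716 and 6821 in tumors. Every DKO liver and 3 of 4 tumors lay below every wild-type liver, and tumor 4 lay above all of them. The limma log2 differences from wild type were -1.60 in tumor (SE 0.84, adjusted p = 0.326) and -1.51 in DKO liver (SE 0.84, adjusted p = 0.469). Cyp2e1 made up 30.3 to 40.7% of the summed P450 RPKM in wild-type livers, 11.97 to 35.6% among DKO livers and 3.78 to 43.0% in tumors.

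Tumor 1 had all 8 pericentral members below the wild-type range, among them Cyp1a2 at 42.3, Cyp2a5 at 33.8, Cyp2c37 at 5.70 and Cyp2c29 at 63.5 RPKM. DKO liver 4 also had all 8 below it. Among all 57 expressed members, 38 in tumor 1 and 34 in DKO liver 4 lay below every wild-type liver. Tumor 4 had 5 of the 8 above the wild-type range and 2 below, and of all 57 it had 21 above and 23 below. It was the highest of the 12 libraries for 15 of 57 members, among them Cyp1a2 at 1536, Cyp2a5 at 820.0, Cyp2c37 at 139, Cyp2c38 at 178 and Cyp2c39 at 712 RPKM. Not all pericentral members followed: in tumor 4 the epoxygenases Cyp2c29, at 281 RPKM, and Cyp2c50, at 161, lay below every wild-type liver.

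Of 3 periportal members, tumor 1 had 2 below every wild-type liver, tumor 2 had 3, tumor 3 had 0 and tumor 4 had 2. For all 57 expressed members these counts were 38, 34, 27 and 23. Cyp2f2 was at 976, 233, 1096 and 48.1 RPKM in tumors, 432, 1276, 968 and 603 among DKO livers and 576, 977, 496 and 868.4 in wild-type livers. Tumor 1 was at the top of the wild-type range and tumor 3 above it, tumors 2 and 4 were below it, and the mean difference of tumor from wild type was -1.08 (SE 0.81, limma adjusted p = 0.507). The other periportal members, Cyp2d22 and Cyp4v3, were at 137, 130.03, 170.2 and 157 and 80.3, 76.7, 156 and 84.5 RPKM in tumors, against 155 to 266 and 144 to 294 in wild-type livers. Tumor 1 was thus below wild type for both, unlike for Cyp2f2.

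Zonal genes that are no P450s were uneven in the same libraries. Of 15 pericentral ones tested, 13 were higher in tumor than in wild type (median 0.59) and 15 were higher in tumor than in DKO liver (median 0.68), whereas the medians of the pericentral P450 genes were negative in both comparisons. The summed RPKM of 16 pericentral genes, Glul and Gulo among them, was 300.0, 2289, 761 and 7598 in the tumors, against 944 to 1217 in wild-type livers. That of 18 periportal genes was 7047, 4695, 6328 and 2031 in the tumors and 5519.5 to 6173 in wild-type livers. Of the 18 periportal ones, 16 were lower in tumor than in wild type (median -0.98). Against DKO liver 16 were also lower in tumor (median -1.44). The calls in tumor against wild type were all rises. They were Slc1a4 (pericentral), Cdh1 and Apoa4 (periportal), with log2 differences of 1.73, 2.71 and 2.46 (limma adjusted p = 0.0215, 0.0178 and 0.0264). That is 6.67% of the pericentral and 11.1% of the periportal genes, against 1.23% of all genes called higher. Cdh1 and Apoa4 were the only 2 periportal genes of the list that were higher there.

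**Figure D4:**
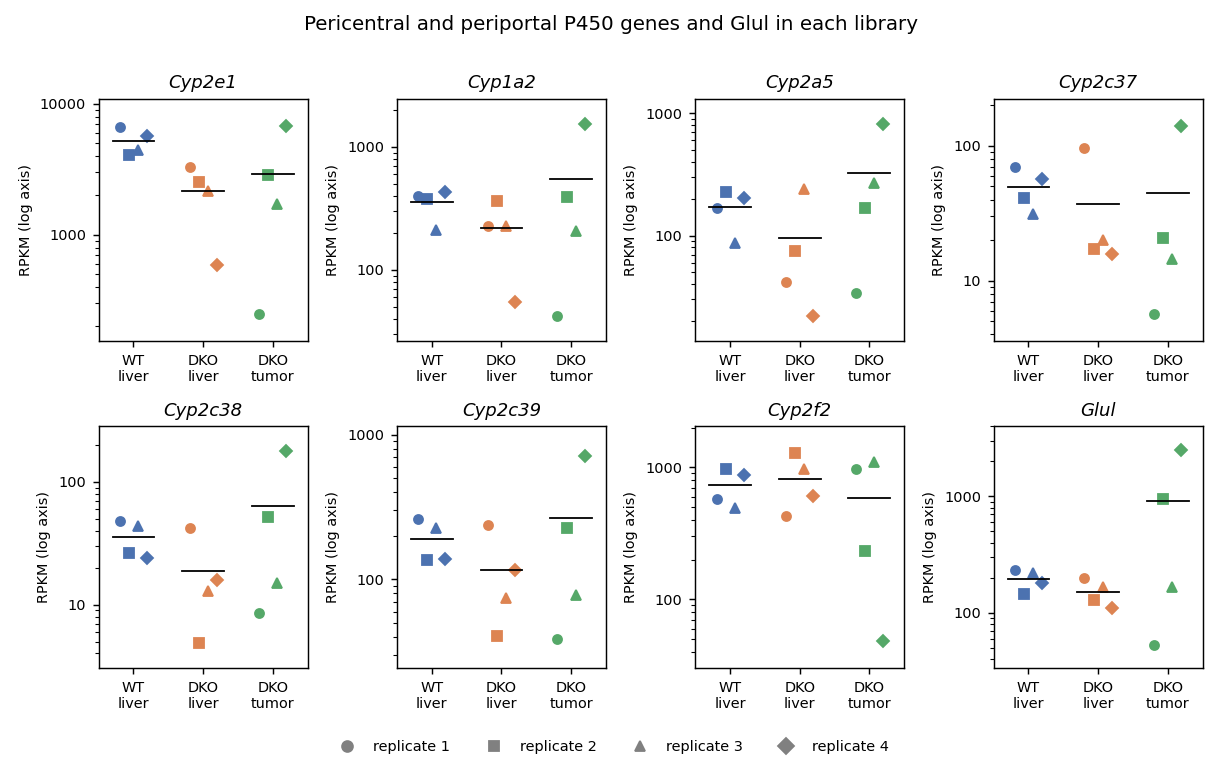
RPKM (log axis) of 7 P450 genes, among them Cyp2c38, Cyp2c39 and the periportal Cyp2f2, with the pericentral gene Glul for comparison, 1 point per library and a line at the group mean. Tumor 4 (green diamond) is highest in all panels but Cyp2f2, where it is lowest, and tumor 1 (green circle) is lowest of the tumors in all panels but Cyp2f2.

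Members with higher expression in one sex also split by library. All libraries held Y-linked transcripts, as given above. Of 7 expressed male-biased P450 genes, 3 fell in tumors (Cyp2u1, Cyp2c54 and Cyp2j5), which is 42.9% against 1.9% of all genes (0.67% lower), and 7 of 7 were lower, with a median of -1.62. The list was chosen with earlier results of these data known, so its count is no independent evidence of a direction. Cyp4a12a, which makes the vasoactive hydroxy fatty acid of its family and depends on androgen, was at 114, 199, 120.5 and 193 RPKM in wild-type livers, 16.7, 171, 134 and 6.63 among DKO livers and 16.7, 16.2, 146 and 7.67 in tumors. DKO livers 1 and 4 and tumors 1, 2 and 4 were low, and the other DKO libraries were within the wild-type range (tumor against wild type -2.61, SE 1.01, limma adjusted p = 0.185). Its near copy Cyp4a12b was high and low in the same libraries, at 0.552, 6.87, 5.83 and 0.360 RPKM among DKO livers and 0.497, 0.460, 8.85 and 0.278 in tumors, and the genes share reads. Cyp2d9, a male-biased testosterone hydroxylase, was at 550.3, 551, 463 and 587 RPKM in wild-type livers, 106, 621, 525 and 42.2 among DKO livers and 61.3, 213, 382 and 183 in tumors (tumor against wild type -1.62, SE 0.77, adjusted p = 0.277). The number of male-biased members below every wild-type liver was 7, 1, 3 and 6 in DKO livers 1 to 4 and 6, 7, 4 and 7 in tumors 1 to 4. For all 57 expressed members it was 24, 17, 23 and 34 in DKO livers 1 to 4 and 38, 34, 27 and 23 in tumors 1 to 4. Such counts by library were not made over all genes.

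Of 12 expressed female-biased P450 genes, 4 were higher and 8 lower in tumors, and the median was -0.03. Only Cyp2a4 was called, which is 8.33% against 1.9% of all genes (1.23% higher). Cyp2b13, of the phenobarbital-responsive CYP2B subfamily, was at 1.74, 1.62, 1.39 and 2.06 RPKM in wild-type livers, 1.72, 5.10, 10.6 and 6.03 among DKO livers and 4.71, 5.16, 20.8 and 36.7 in tumors. The tumors lay above the wild-type range, tumors 3 and 4 the most, and the difference of 2.28 did not pass (SE 0.57, limma adjusted p = 0.0640). DKO liver 4 had 7 of the 12 above every wild-type liver, against 11 of all 57 members, and was the highest of all libraries for 5 members. These were Cyp2c69 at 57.2, Cyp2c40 at 26.8, Cyp3a44 at 54.4, Cyp3a16 at 33.5 and Cyp2b9 at 96.6 RPKM, against 1.95 to 3.14, 1.56 to 2.34, 13.7 to 17.6, 10.9 to 13.9 and 11.4 to 61.5 in wild-type livers. DKO liver 4 was also the lowest of all libraries for 18 members, among them Cyp3a11 at 241, Cyp2c67 at 59.3 and Cyp4a12a at 6.63 RPKM. Tumor 4 had 9 of the 12 female-biased members above every wild-type liver, against 21 of all 57 expressed members. Sult3a1, a female-biased sulfotransferase, was high in the same libraries, at 292 RPKM in DKO liver 4 and 435 in tumor 4, against 1.51 to 7.82 in wild-type livers.

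**Figure D5:**
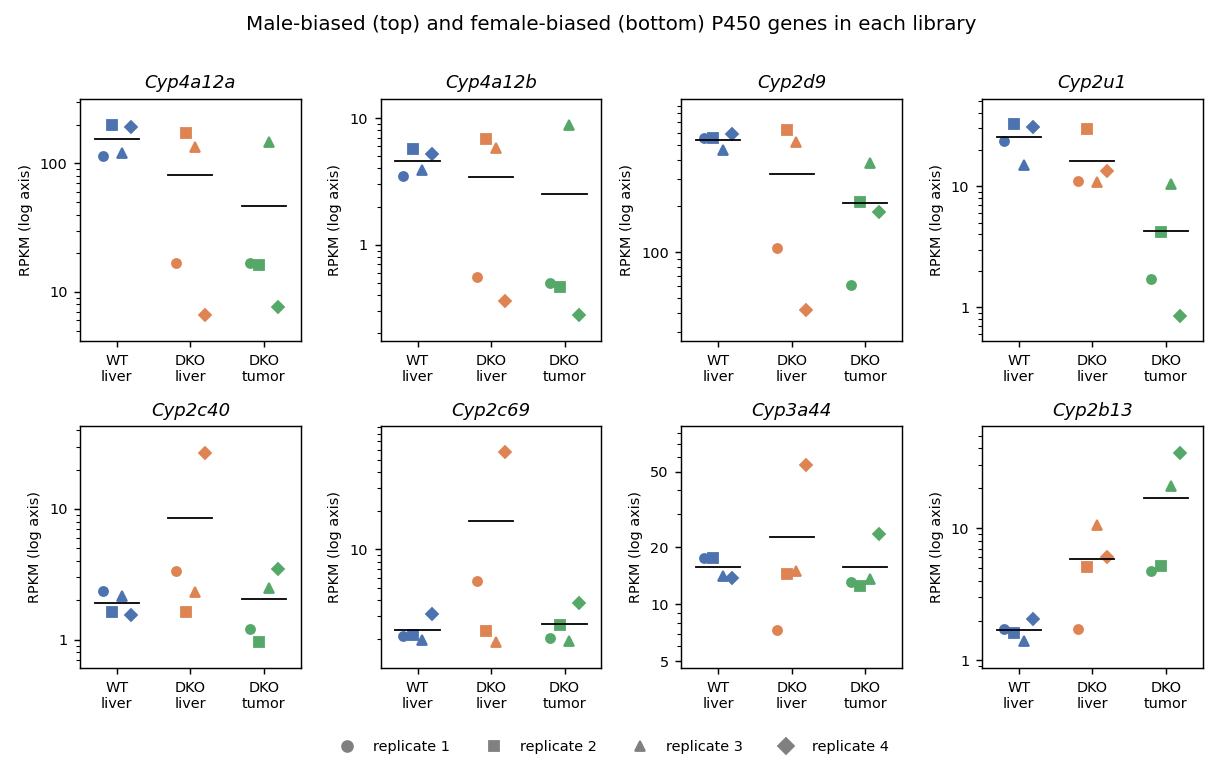
RPKM (log axis) of 4 male-biased P450 genes (top) and 4 female-biased ones (bottom), 1 point per library and a line at the group mean. DKO livers 1 and 4 and tumors 1, 2 and 4 are low for Cyp4a12a and Cyp4a12b, and DKO liver 4 (orange diamond) is the highest library for Cyp2c40, Cyp2c69 and Cyp3a44.

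Genes that were highest and genes that were lowest in DKO liver 4 include close paralogs of the CYP2C and CYP3A subfamilies. Windows of 60 bases before their starts are shown for 5 of them, each around the letters CAAAGTCCA (or the reverse complement TGGACTTTG on the other strand), a binding sequence known for the liver factor HNF4. The sequences are from RefSeq (GRCm38.p6), read 5′ to 3′ on the gene's own strand, and capitals mark the letters searched.
Cyp2c69: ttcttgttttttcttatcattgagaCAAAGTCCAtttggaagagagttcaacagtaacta
Cyp2c40: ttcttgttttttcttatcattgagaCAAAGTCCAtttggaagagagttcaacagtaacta
Cyp2c67: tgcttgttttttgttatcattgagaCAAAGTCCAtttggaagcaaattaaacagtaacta
Cyp3a16: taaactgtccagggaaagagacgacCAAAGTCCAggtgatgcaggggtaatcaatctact
Cyp3a11: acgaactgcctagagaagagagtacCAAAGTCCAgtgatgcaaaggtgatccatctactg
They lie at chr19:39886810-39886869, chr19:39812825-39812884, chr19:39649133-39649192, chr5:145469788-145469847 and chr5:145879929-145879988, all on the minus strand. Cyp2c69, Cyp2c40 and Cyp3a16 were highest in DKO liver 4, while Cyp2c67 and Cyp3a11, whose windows carry the same letters, were lowest there. These letters occurred in the 250 bases before the start of 7 of 46 expressed members with a promoter entry (15.2%), the others being Cyp2c68 and Cyp2c70, and in 0.384% of 32851 promoters of that length. For these and the other letters searched, a member counted when any of its promoter entries held them. The share of all promoters counts each entry alone, so the 2 percentages are not of the same unit. The members with the letters include close paralogs, which are not independent, and a match is no evidence of binding. Other letters searched on both strands gave TATAAA in 21 of 46 members (45.7%, against 12.4% of all promoters), TTGCNNAA of the C/EBP factors in 11 (23.9%, against 9.56%), TTCNNNGAA of STAT5 in 2 (4.35%, against 7.02%) and TTANGTAA of the clock output factors Dbp, Tef and Hlf in 1 (2.17%, against 2.06%). The HNF1 letters GTTAAT were in 8 members (17.4%, against 6.43%), the xenobiotic response core TNGCGTG in 1 (2.17%, against 4.1%) and the PPAR direct repeat in 3, Cyp2d9, Cyp2d10 and Cyp2d40 (6.52%, against 0.338%). The full HNF1 palindrome, which contains GTTAAT, and the direct repeat of CAR and PXR were in 0 of these windows (against 0.0335% and 0.00913%).

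The promoters of Cyp2a4 and Cyp2a5 are nearly the same as well. The 250 bases before the start of each gene are shown because Cyp2a4 rose in tumors while Cyp2a5 was not called. Capitals mark the differing bases, and an end base opposite a gap is also a capital.
Cyp2a4: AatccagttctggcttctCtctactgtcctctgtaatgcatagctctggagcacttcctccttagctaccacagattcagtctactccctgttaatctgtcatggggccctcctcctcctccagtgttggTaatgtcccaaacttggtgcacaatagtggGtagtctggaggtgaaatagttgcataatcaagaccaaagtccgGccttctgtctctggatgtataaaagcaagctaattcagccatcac
Cyp2a5: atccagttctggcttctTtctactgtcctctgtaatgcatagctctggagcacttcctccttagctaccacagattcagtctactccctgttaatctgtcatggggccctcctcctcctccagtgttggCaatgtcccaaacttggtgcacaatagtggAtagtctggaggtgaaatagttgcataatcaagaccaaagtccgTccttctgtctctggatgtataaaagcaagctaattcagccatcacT
They lie at chr7:26306942-26307191 and chr7:26835089-26835338 on the plus strand (RefSeq, GRCm38.p6) and are 97.6% identical, with 6 differing columns of which 2 are gaps at the ends.

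Spread of the P450 members within a group was wider in the DKO groups, and was not compared with that of all genes. The ratio of the highest to the lowest library had a median over the 57 members of 1.71 in wild-type livers, 3.95 among DKO livers and 2.20 in tumors. It exceeded 10 for 2 members in wild-type livers (Cyp4a10 and Cyp1b1), 12 among DKO livers and 13 in tumors. The fatty acid hydroxylase Cyp4a10, a target of PPAR-alpha, was at 46.0, 11.4, 3.98 and 7.40 RPKM in wild-type livers, 16.5, 2.55, 3.57 and 1.302 among DKO livers and 3.54, 4.53, 4.12 and 67.3 in tumors. Wild-type liver 1 and tumor 4 were high for it (tumor against wild type -0.37, SE 0.94, limma adjusted p = 0.881). Of 18 other PPAR-alpha targets, 0 were called in any comparison.

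None of the listed genes that serve or control the P450 enzymes was called in tumor against wild type, where 1.9% of all genes were. At an unadjusted limma p under 0.05 there were 78.6% of clock genes and output factors (3 higher and 8 lower). The share was 37.5% for transcription factors and nuclear receptors (1 higher and 8 lower) and 30.8% for growth hormone axis and sex-bias regulators. It was 25% for partner proteins and 7.69% for heme genes, against 19.2% of all genes. Among the partner proteins 0 of 4 passed. Pgrmc1, a heme-binding partner, was at 783 to 991 RPKM in wild-type livers, 356 to 816 among DKO livers and 585 to 660.1 in tumors (tumor against wild type -0.53, limma adjusted p = 0.255), and the electron donor Por was at 34.6, 43.9, 96.1 and 192 RPKM in tumors, against 92.1 to 185 in wild-type livers. Among 24 transcription factors and nuclear receptors 0 passed. Hnf4a was at 152 ± 19.5 RPKM in wild-type livers and 168 ± 31.8 in tumors (0.14, adjusted p = 0.749), and Cebpa at 113 ± 24.8 and 59.7 ± 12.8 (-0.91, adjusted p = 0.0640). The growth hormone axis and sex-bias regulators had 0 of 13 called, with the receptor Ghr at 182 to 258 RPKM in wild-type livers and 77.0 to 172 in tumors (-0.74, adjusted p = 0.164). Clock genes and their output factors had 0 of 14 called, with a median of -0.76. Dbp was at 68.0, 40.7, 48.2 and 110.0 RPKM in wild-type livers, 4.28, 3.77, 30.8 and 21.7 among DKO livers and 3.51, 4.85, 15.1 and 38.6 in tumors (-2.47, adjusted p = 0.106). Heme synthesis and breakdown had 0 of 13 called, and the rate-limiting enzyme Alas1 was at 29.5, 42.0, 225 and 178 RPKM in tumors, against 125 to 259 in wild-type livers. None of these lists had a call in the other 2 comparisons.

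Of 13 P450 genes of other families, Cyp39a1, an oxysterol hydroxylase, rose from 7.25 ± 3.17 to 21.7 ± 7.38 RPKM (n = 4 each; log2 difference 1.48, limma adjusted p = 0.0261). It was the only call of that list, 7.69% against 1.23% of all genes called higher. Of 56 other drug-metabolizing enzymes, 4 fell and 0 rose, which is 7.14% against 1.9% of all genes (0.67% lower): the glycosyltransferase Ugt3a1 (log2 difference -2.25, adjusted p = 0.0178), the sulfotransferase Sult1b1 (-1.06, 0.0318), the alcohol dehydrogenase Adh4 (-1.41, 0.0486) and the acetyltransferase Nat1 (-1.01, 0.0472). Their median was -0.24, and 39 of 56 were lower in tumors. Of 14 male-biased genes outside the P450 families, Mup1 (-3.28, adjusted p = 0.0215) and Susd4 (-2.92, 0.0169) fell, which is 14.3% against 0.67% of all genes. Of 15 female-biased ones Prom1 rose (2.501, 0.0215), which is 6.67% against 1.23%.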

How the data were processed

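The deposited values are RPKM of 21247 RefSeq transcripts per library, made by the authors. BWA and mm9 are the aligner and mouse build named in the submitters' processing notes, and the counting tool, strand setting and read length are not given in the sources used here. Per the labels' protocols, polyadenylated RNA was enriched and made into SOLiD libraries. Deposited RPKM times exon length gave whole reads for 100% of values of at most 10000 reads (tolerance 0.05 reads), from which depth was taken. Larger values were not part of that check. Depth covers counting error only. Coordinates are printed as deposited, and whether they count from 0 or 1 is not stated.

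The longest transcript was kept for each symbol, and the 11351 genes that reached 0.5 RPKM in 4 or more libraries were fitted with limma 3.58.1 in R 4.3.3: log2(RPKM + 1), 1 mean per group over 12 libraries, trended and robust variance shrinkage, two-sided, Benjamini-Hochberg over all genes, threshold 0.05. Fold changes on this scale understate those of low genes. The labels do not say how far samples are separate animals beyond the codes, so p-values measure the spread between these samples.

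Members and gene lists were chosen with earlier results of these data known. Named members were those called, the 12 of highest mean, the 5 of largest difference in each comparison, the 3 of widest spread, and Cyp2a4 and Cyp2a5. From other lists, genes called or the 2 of highest mean were named. Other genes were named after their values were seen. Same-numbered DKO liver and tumor share an animal code, so the numbers pair these groups by label. Their deviations from the group means correlated at 0.117, 0.347, 0.368 and 0.00285 for animals 1 to 4. For tumors 1 and 4 a DKO liver of another number correlated more highly, at 0.154 and 0.0916. Alternatives covered offset, filter, scaling, shrinkage, libraries in the fit, the tag as covariate, replicate block, voom on recovered reads and transcript choice. Leaving out DKO animals 1 and 2 was added after seeing the data. Python 3.11.15, numpy 2.4.6, pandas 2.3.3, scipy 1.17.1, matplotlib 3.10.9 and statmod 1.5.0 were also used.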

Additional observations from a re-analysis of the deposited data

Results flagged for a closer look

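In each group of 4 libraries of the 21 named members, the highest or lowest library was flagged when its gap to the next, divided by the range of the group, exceeded Dixon's critical value at the 95% level. Of 63 groups 5 were flagged, and chance alone flags about 1 in 20. DKO liver 2 had 29.7 RPKM of Cyp2u1, far above the other DKO livers. Tumor 3 had 146 RPKM of Cyp4a12a, the one tumor within the wild-type range. DKO liver 3 had 0.938 RPKM of Cyp2c55, above the other DKO livers. For Cyp2c70, wild-type liver 3 stood high in its group at 699 RPKM and tumor 4 stood low in its group at 373 RPKM.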

How the results depend on the processing

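The number of P450 genes called in tumor against wild-type liver, 6 as reported, was 5 to 7 under another offset, a stricter filter, both scalings, non-robust shrinkage, the 8 libraries alone, voom and another transcript. The count was 2 without a filter, 0 with the tag as covariate, 1 within tag L03, 2 with a replicate block and 2 without DKO animals 1 and 2, and it ran from 0 to 8 when 1 library was left out. Over all genes, 216 calls became 112 without a filter, 609 with median-of-ratios scaling, 478 with quantile normalization, 3 with the tag as covariate, 25 within tag L03, 128 with a replicate block and 10 without animals 1 and 2, and 16 to 413 with 1 library left out. DKO liver against wild type had 0 member calls, 1 without animals 1 and 2, and 0 to 1 with 1 library left out. Over all genes it had 1 with median-of-ratios scaling, with the 8 libraries alone or without animals 1 and 2, and 0 to 2 with 1 library left out. Tumor against DKO liver had 0 member calls, and 0 to 3 with 1 library left out. Over all genes its 1 call became 0 with the stricter filter, 24 with quantile normalization (13 up and 11 down), 55 with the 8 libraries alone, 0 with the tag as covariate, 71 with a replicate block and 0 without animals 1 and 2, and 1 to 363 with 1 library left out. Wild-type replicate numbers do not pair with the DKO groups (correlations of deviations -0.127 to 0.227), and the block changed no member call in DKO liver against wild type or tumor against DKO liver. Of single genes, Cyp2c54 in tumor against DKO liver reversed without animals 1 and 2, to 0.61 (limma adjusted p = 0.992). The other values of named members gave the same outcome in 567 cases, lost a call in 62 and gained one in 7. The 567 include members called in neither fit, and only the 6 members called in tumor against wild type could lose a call. With 1 library left out, Cyp2a4 passed in 8 of 12 fits and Cyp2u1 in 7. Cyp4f16 and Cyp2c54 passed in 6 of 12, and Cyp2j5 and Cyp2j9 in 5. The cause of these shifts was not tested. With 4 libraries per group and 1 read worth 0.0313 to 0.0626 RPKM in a 2 kb transcript, members under about 1 RPKM rest on few reads.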

Other observations

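The 20 members under the expression limit reached at most 1.79 RPKM, in Cyp4a31. Cyp4x1 had 0 reads in all 12 libraries. Cyp3a41a and Cyp3a41b were deposited on the same locus with the same 30 reads, so their levels, at most 0.314 and 0.313 RPKM, are 1 measurement.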
